A study of Mus musculus with 4 samples.

Results

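The bone morphogenetic protein (BMP) ligands Bmp2, Bmp3, Bmp4, Bmp5, Bmp6 and Bmp7 and the secreted BMP antagonists Nog, Grem1, Chrd and Bmper were followed across tissue sections of the embryonic mouse head. They were taken by gene symbol and are 10 of the 19465 genes counted, 6 of them ligands and 4 antagonists. All 10 had counts in every capture area and all 10 passed the filter on low counts in the main comparisons below. The study profiled formalin-fixed, paraffin-embedded coronal sections through the middle of the palate of wild-type heads at embryonic day (E) 14.5 and E15.5, the days around palatal fusion, by Visium spatial RNA sequencing, in which barcoded spots on a slide capture the transcripts of the tissue lying over them. The mice were C57BL/6J, and neither stage carried an engineered allele or a treatment. Each stage had 2 capture areas, one with a single section (replicate 1, the single area) and one with 3 sections (replicates 2, 3 and 4, the shared area). Unless stated otherwise, 4 values in a row are given in the order E14.5 single, E14.5 shared, E15.5 single and E15.5 shared area.

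BMPs are secreted dimers of the TGF-β superfamily that bind type I and type II serine/threonine kinase receptors, which phosphorylate receptor-regulated Smad proteins that enter the nucleus with Smad4. Noggin, gremlin and chordin bind ligands outside the cell and keep them from their receptors, and Bmper, a chordin-related protein, can either block or promote signalling. In the developing head the pathway is known for its roles in bone and cartilage formation, in palatal shelf growth, and in the budding of teeth, hair follicles and other ectodermal organs.

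Across the 6137 of 6357 tissue spots with at least 1000 UMIs (unique molecular identifiers, the counted molecules), the members differed in where they were highest. Bmp2, Bmp6 and Bmp3 were highest in spots rich in osteoblast markers, at 2.86-fold, 2.71-fold and 2.08-fold of the other spots. Bmp4 and Bmp7 were highest in spots rich in epithelial or placode markers, at 2.74-fold for Bmp4 in basal epithelium spots and 1.94-fold for Bmp7 in placode spots. Bmp5, Nog and Bmper were highest in cartilage spots (3.74-fold, 2.71-fold and 1.81-fold), Chrd in skeletal muscle spots (2.24-fold) and Grem1 in tendon spots (1.67-fold). No member differed between E14.5 and E15.5 past the threshold, but the fit over all tissue called 0% of 15609 genes, so this does not set the members apart.

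The 4 areas held 15438992 to 109127953 UMIs, and counts were scaled to counts per 1000000 UMIs of the area or group of spots (CPM). The E14.5 single area stood apart with a median of 6752 UMIs per spot against 45058.5, 64051 and 45471.5 in the others. Section A of the E14.5 shared area was also shallow, at 10037.5 UMIs per spot, where the other 6 sections had 38795 to 65616. Section letters are arbitrary, since the labels do not say which section is replicate 2, 3 or 4. Results that rest on the E14.5 single area are given with and without it. The labels tie no section to an embryo, and the sections of a shared area are 1 library, so the capture area is the sample. The p-values between stages measure the spread between the 4 capture areas, which may be partly technical. Those for spots rich in markers measure how the difference to the other spots of the same area varies over the areas used. A spot can hold several cells of different types, and in summed counts fewer cells of a type and less RNA per cell cannot be told apart. The efficiency of capture differs between genes, so levels are compared between places and stages and not between genes.

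The sums over whole sections set the frame for the regional values. The 10 members together gave 247, 359, 293 and 361 CPM in the 4 areas, and 2091 UMIs (Bmp5) to 19558 UMIs (Bmp7) each over all areas. The E14.5 single area was the lowest E14.5 section for 7 of the 10 members, as the E15.5 single area was among the E15.5 sections, and section A of the E14.5 shared area was the highest E14.5 section for 8 of 10. What the sections hold differed as well. The 5 cortical neuron markers summed to 1492 CPM in the E14.5 single area and 1015 CPM in the E15.5 single area, but to 389, 931 and 474 CPM in sections A, B and C of the E14.5 shared area and to 408, 311 and 46.0 CPM in those of the E15.5 shared area. Cortical neuron spots were among the lowest for most members, as given further on, and the part of this makeup in the differences between sections was not tested.

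**Figure D1:**
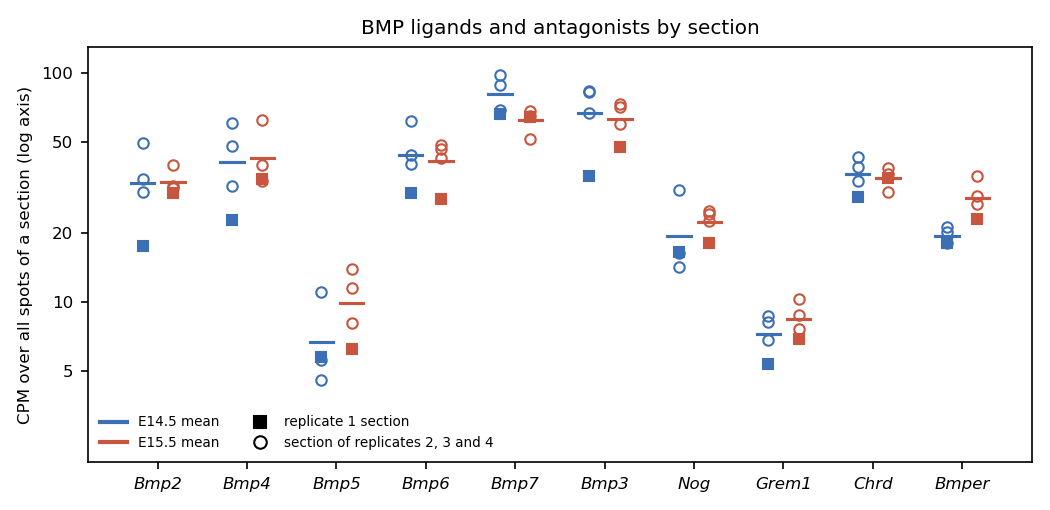
CPM of each member (log axis) in each of the 8 sections, with E14.5 in blue and E15.5 in red, squares for the single area, circles for the 3 sections of the shared area and a line at the mean of the 4 sections of a stage. The sections of the stages overlap for 9 of the 10 genes, and only Bmper lies apart (6.07% of all genes lie apart as higher at E15.5 and 3.27% as lower), at 18.1 to 21.3 CPM at E14.5 and 23.1 to 35.4 CPM at E15.5.

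To place the members in tissue, the 5% of spots in each area with the highest mean level of a fixed marker list were taken for 17 lists, 307 spots per list over the 4 areas, and were compared with all other spots of the same area. Only spots with at least 1000 UMIs were used. The sums were fitted with edgeR's quasi-likelihood test with the capture area as a block, and a gene was called at a Benjamini-Hochberg adjusted p under 0.1 over all genes tested. The lists mark where spots are richest in a tissue's genes, and no spot is of one type. Spots within 0.1 of a list's limit numbered from 49 for cartilage to 160 for the Osr2 and Pax9 list, so the borders are gradual. As the choice of spots fixes, the markers were high in them, the bone matrix gene Ibsp at 4320, 3941, 4551 and 7950 CPM in osteoblast spots against 189, 325, 302 and 930 CPM elsewhere. In the list of Osr2, Pax9 and other genes of palatal and oral mesenchyme, Pax9 stood at 425, 542, 317 and 390 CPM against 31.5, 79.1, 59.9 and 76.5 CPM, but Tbx22, a transcription factor gene of palatal mesenchyme, had 0, 2, 0 and 2 UMIs in these spots. These spots are therefore described by their genes and not as palate.

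Bmp2 (ENSMUSG00000027358, chr2:133552159-133562885 of GRCm38, plus strand), a strong inducer of bone and cartilage, stood at 17.7, 33.7, 29.9 and 33.9 CPM over all tissue. In osteoblast spots it stood at 73.0, 74.2, 66.3 and 66.9 CPM, against 15.6, 30.7, 27.9 and 31.8 CPM in all other spots. The marker spots of every area lay above the other spots of every area, and the difference was 1.52 ± 0.14 on the log2 scale (SE, adjusted p = 0.000153), or 1.42 without the E14.5 single area. The second list was that of multiciliated airway cells, kept in the 3 areas other than the E14.5 single one, at 67.9, 68.5 and 57.6 CPM against 31.9, 28.0 and 32.6 CPM (log2 difference 1.0 ± 0.09, adjusted p = 0.000215). Cartilage spots followed at 48.4, 66.6, 51.6 and 55.3 CPM (0.98 ± 0.12, adjusted p = 0.00117). The mean CPM of these 3 lists, 70.1, 64.7 and 55.5, did not differ between neighbours in the order beyond their spread over areas. In such orders a mean is over the areas that kept a list, and neighbours were compared over the areas that kept both. At the other end, spots of the list for the ventricular zone of the brain held 2.16, 6.48, 3.44 and 6.92 CPM of Bmp2 against 20.6, 35.0, 31.6 and 34.9 CPM elsewhere, a log2 difference of -2.65 ± 0.20 (adjusted p = 0.000538). Of these spots 19.5% were also retina spots.

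Bmp6 (ENSMUSG00000039004, chr13:38345107-38500302, plus strand), a ligand known in cartilage, bone and iron homeostasis, shared the osteoblast spots with Bmp2. It stood there at 79.6, 100.3, 61.0 and 88.6 CPM against 27.9, 39.3, 26.4 and 42.2 CPM. Each area was higher in its marker spots, and the groups did not overlap (log2 difference 1.44 ± 0.08, adjusted p = 2.04e-05, and 1.44 without the E14.5 single area). Basal epithelium spots held 71.0, 82.7, 40.7 and 59.7 CPM (0.74 ± 0.14, adjusted p = 0.00452). The spots of the meningeal list held 92.9, 62.1, 47.5 and 61.4 CPM against 26.7, 42.5, 27.4 and 44.3 CPM (0.80 ± 0.20, adjusted p = 0.0552). This call was the least firm of the 3, because it was lost at the wider limit of 10% of spots (log2 difference 0.57), with every spot thinned to 5000 UMIs (0.31) and when any area but the E14.5 single area was left out. Bmp6 was lowest in ventricular zone spots at 6.04, 33.2, 3.44 and 13.5 CPM, which spread widely between areas and still lay below the other spots of each area at 34.2, 44.0, 29.8 and 46.1 CPM (-1.67 ± 0.39, adjusted p = 0.0132).

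Bmp3 (ENSMUSG00000029335, chr5:98854415-98884396, plus strand), a member of the family made by bone cells that is known to oppose other BMPs, was the third ligand to lead in osteoblast spots. Its CPM there was 58.0, 135, 77.4 and 123 against 34.5, 70.4, 45.8 and 62.8 elsewhere, so the areas differed in level and each area was higher in its own marker spots (1.06 ± 0.09, adjusted p = 8.99e-05). In the order of mean Bmp3 levels the osteoblast spots, at 98.4 CPM over 4 areas, lay beyond the next list, peripheral nerve at 72.2 CPM over 3 areas. The difference in cartilage spots was smaller, at 43.6, 89.3, 66.9 and 82.8 CPM against 35.1, 74.1, 46.3 and 65.4 CPM (0.38 ± 0.08, adjusted p = 0.0164), and was not called with 5000 UMIs per spot (0.20). In tendon spots it was smaller still at 0.24 ± 0.08 (adjusted p = 0.042), was not called with DESeq2 (0.24), and came to -0.01 when every spot was thinned to 5000 UMIs. Bmp3 was lower in ventricular zone spots at 13.4, 32.0, 26.3 and 26.4 CPM (-1.18 ± 0.14, adjusted p = 0.00122).

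**Figure D2:**
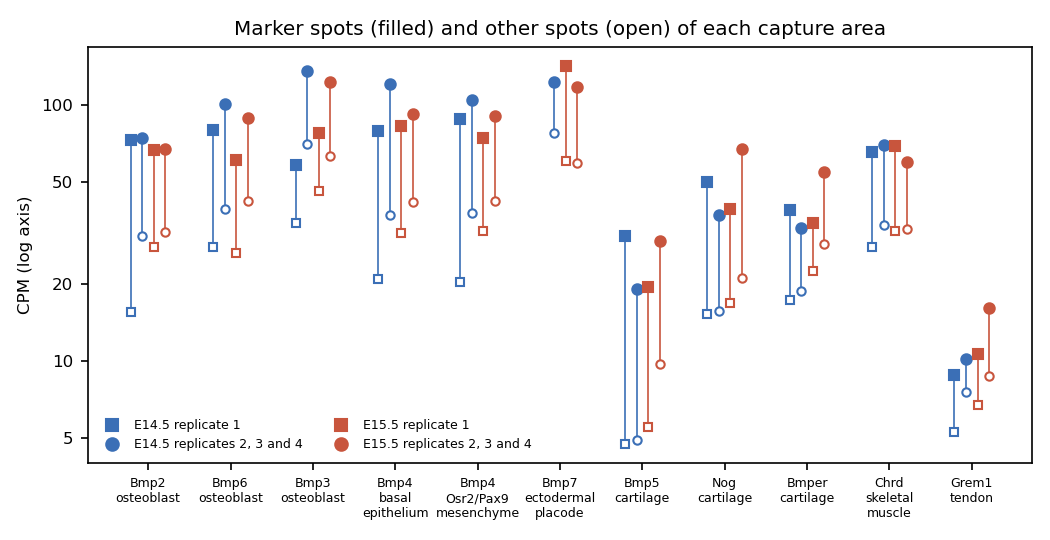
CPM (log axis) of each member in the marker spots of the list that led it (filled symbols) and in all other spots of the same area (open symbols), with squares for the single areas, circles for the shared areas, blue for E14.5 and red for E15.5. Bmp4 is shown for its 2 highest lists, and filled symbols lie above the open ones of the same area for every gene.

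Bmp4 (ENSMUSG00000021835, chr14:46383520-46390669, minus strand), which signals between epithelium and mesenchyme in tooth, hair and palate, stood at 22.9, 40.8, 34.4 and 44.97 CPM over all tissue. It was highest in basal epithelium spots (Krt5, Krt14 and Trp63 among the markers), at 78.6, 121, 82.3 and 91.5 CPM against 20.9, 37.2, 31.6 and 41.8 CPM (1.45 ± 0.13, adjusted p = 0.000118). The mesenchymal spots rich in Osr2 and Pax9 held nearly as much, 87.8, 104, 73.9 and 90.4 CPM against 20.4, 37.7, 32.0 and 42.2 CPM (1.32 ± 0.13, adjusted p = 0.000512). Placode spots, marked by Edar and Wnt10a among others, held 99.2, 81.3 and 98.5 CPM in the 3 areas that kept them (1.31 ± 0.09, adjusted p = 3.8e-06). These 3 lists share spots in part: 103 of the 307 basal epithelium spots were also placode spots (33.6%) and 52 were also Osr2 and Pax9 spots (16.9%). The 3 lists did not differ from their neighbours in Bmp4 level beyond the spread over areas, while the Osr2 and Pax9 spots (mean 89.0 CPM) did lie above the fourth list, osteoblast (51.3 CPM). Bmp4 was lowest in ventricular zone spots, at 3.45, 12.2, 2.95 and 8.81 CPM (-2.48 ± 0.27, adjusted p = 0.000927).

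Bmp7 (ENSMUSG00000008999, chr2:172868012-172940321, minus strand), known for its roles in eye, kidney and ectodermal organs, was highest by mean in 3 epithelial lists. Placode spots held 123, 142 and 117 CPM against 77.8, 60.0 and 59.1 CPM in the other spots of the same 3 areas (0.96 ± 0.12, adjusted p = 0.000189). Spots of the stratified epidermis held 177, 95.4, 131 and 107 CPM (0.89 ± 0.17, adjusted p = 0.00216), or 0.71 without the E14.5 single area, where the level was highest. Basal epithelium spots held 155, 110.1, 132 and 91.7 CPM (0.82 ± 0.14, adjusted p = 0.00245). These lists share spots in part: 99 of the 307 epidermis spots were also placode spots (32.2%) and 63 were also basal epithelium spots (20.5%). The ratio to other spots varied between areas, from a log2 ratio of 0.50 in the E14.5 shared area to 1.31 in the E14.5 single area for basal epithelium. Bmp7 was called higher in olfactory neuron (0.75), meningeal (0.73) and cartilage spots (0.68) as well, and their means of 113, 114 and 109 CPM did not lie beyond the spread from their neighbours in the order. The lowest of the called lists was cortical neuron, at 28.4, 33.5, 23.5 and 40.0 CPM against 72.4, 81.6, 66.4 and 62.6 CPM (-1.04 ± 0.13, adjusted p = 0.000692).

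Bmp5 (ENSMUSG00000032179, chr9:75775364-75900310, plus strand), the ligand mutated in short ear mice and known for shaping cartilage, was low over all tissue at 5.76, 5.63, 6.25 and 10.8 CPM. Cartilage spots held 30.7, 19.2, 19.4 and 29.3 CPM, from 19, 107, 68 and 151 UMIs, against 4.74, 4.90, 5.53 and 9.72 CPM elsewhere. This was the largest difference of any member to a list in which it was higher (1.90 ± 0.17, adjusted p = 0.00031), and it was 1.84 without the E14.5 single area. Olfactory neuron spots held 17.8, 8.83, 13.9 and 24.5 CPM (1.16 ± 0.18, adjusted p = 0.00343), a call lost when spots were thinned to 5000 UMIs (1.02), and 42 of the 307 cartilage spots were also olfactory neuron spots. Peripheral nerve spots, kept in 3 areas, held 11.5, 11.8 and 14.5 CPM (0.82 ± 0.18, adjusted p = 0.0225), which was not called without the E15.5 single area (0.75). Bmp5 was lowest in retina spots, where 2, 10, 7 and 7 UMIs gave 2.08, 1.77, 1.57 and 1.92 CPM (-2.01 ± 0.26, adjusted p = 0.00246), and this call was also lost with 5000 UMIs per spot (-0.63).

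**Figure D3:**
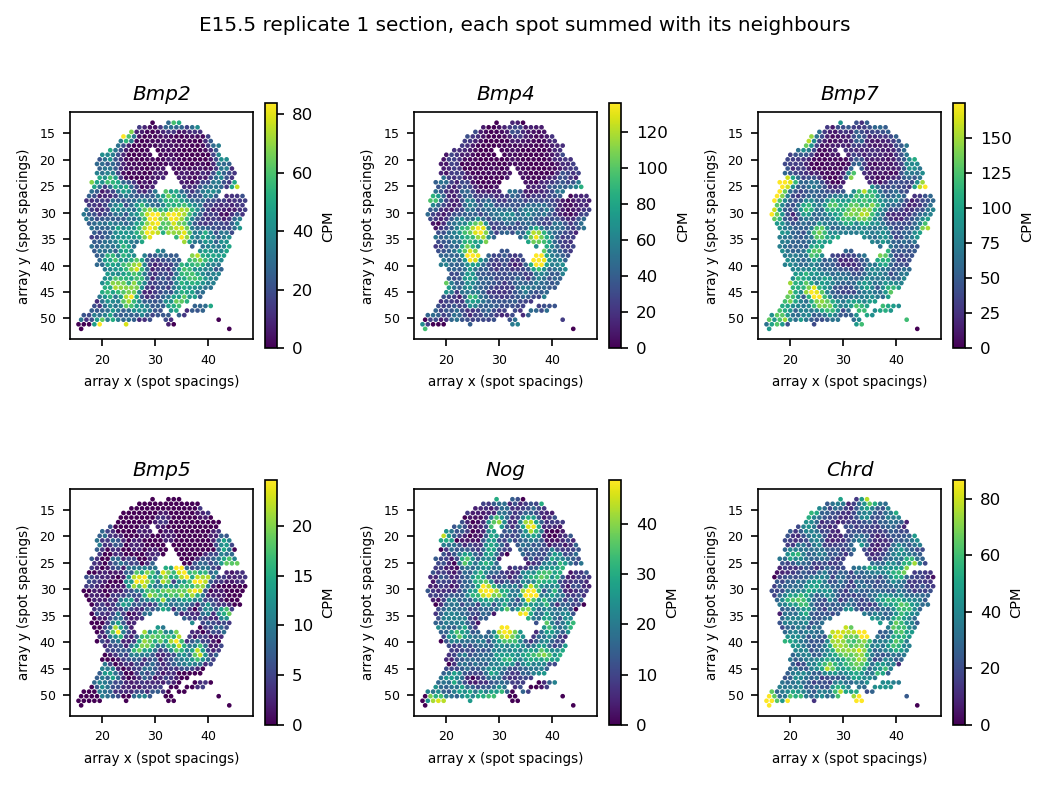
Maps of Bmp2, Bmp4, Bmp7, Bmp5, Nog and Chrd over the E15.5 single section, each point a spot at its place on the array, with the counts of the spot and its array neighbours summed and colour giving CPM (capped at a high percentile so that single spots do not set the scale). Bmp4 is highest in a few foci beside the central gap of the section, Bmp7 along parts of the outer edge, Bmp5 and Nog in small patches above and below the gap and Chrd in the tissue under it, and the upper part of the section is low for Bmp2, Bmp4 and Bmp5.

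Among the antagonists, Nog (ENSMUSG00000048616, chr11:89300638-89302332, minus strand), which encodes noggin and is required for joint formation in cartilage, stood at 16.6, 16.8, 18.0 and 23.7 CPM over all tissue. Cartilage spots held 50.04, 37.1, 39.03 and 66.9 CPM, from 31, 207, 137 and 345 UMIs, against 15.2, 15.7, 16.9 and 21.0 CPM elsewhere. All marker spots lay above all other spots (1.44 ± 0.13, adjusted p = 0.000362). The cartilage mean of 48.3 CPM over 4 areas lay beyond the next list, peripheral nerve at 27.3 CPM over 3 areas. Skeletal muscle spots were higher by 0.67 ± 0.13 (adjusted p = 0.00322), and peripheral nerve spots by 0.51 ± 0.13 (adjusted p = 0.045). Both of these calls were lost with 5000 UMIs per spot, at 0.48 and 0.41, and the nerve call also without the E15.5 single area (0.35). Nog was lowest in retina spots at 3.12, 9.04, 7.64 and 15.9 CPM against 17.5, 17.2, 18.8 and 24.0 CPM (-1.0 ± 0.21, adjusted p = 0.0146), a call likewise lost with 5000 UMIs per spot (-0.53).

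Bmper (ENSMUSG00000031963, chr9:23223076-23485200, plus strand) was the other antagonist led by cartilage, at 38.7, 33.1, 34.5 and 54.7 CPM against 17.4, 18.7, 22.5 and 28.5 CPM (0.86 ± 0.11, adjusted p = 0.00206). Skeletal muscle spots held 49.1, 26.9, 34.4 and 36.4 CPM (0.72 ± 0.15, adjusted p = 0.00412), and in mean level they did not differ from cartilage spots beyond the spread over areas. Lens spots held 34.7, 33.9 and 38.5 CPM in 3 areas (0.80 ± 0.14, adjusted p = 0.0209), a call lost at 10% of spots (0.54) and without the E14.5 shared area (0.62). Bmper was scarce in the stratified epidermis, where 1, 36, 29 and 19 UMIs gave 3.69, 8.95, 10.5 and 5.33 CPM against 18.5, 19.8, 23.6 and 31.0 CPM (-1.56 ± 0.25, adjusted p = 0.00073).

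Chrd (ENSMUSG00000006958, chr16:20733127-20742384, plus strand), which encodes chordin, was the member with the largest difference in skeletal muscle spots. These spots held 65.4, 69.4, 69.0 and 59.7 CPM against 27.7, 33.9, 32.0 and 32.8 CPM (1.16 ± 0.09, adjusted p = 2.27e-05). Marker and other spots did not overlap in any pair of areas. Muscle spots were also deeper in 3 of the 4 areas, with medians of 4713, 79745, 106519 and 65630 UMIs against 8730, 45814, 62458 and 44303 UMIs, and with every spot at 5000 UMIs the difference was 0.89 and was still called. Tendon spots held 90.6, 66.5, 54.4 and 49.6 CPM (0.92 ± 0.14, adjusted p = 0.00103). The Osr2 and Pax9 spots held 68.5, 57.5, 43.6 and 44.4 CPM (0.55 ± 0.14, adjusted p = 0.0225), which was not called without the E14.5 shared area (0.53). These 3 lists were ordered by the means 65.9, 65.3 and 53.5 CPM, and tendon lay beyond Osr2 and Pax9 while muscle and tendon did not differ beyond their spread. Of the 307 tendon spots, 63 were also Osr2 and Pax9 spots (20.5%). Chrd was lowest in ventricular zone spots at 13.4, 19.6, 16.2 and 13.5 CPM (-1.09 ± 0.14, adjusted p = 0.00154).

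Grem1 (ENSMUSG00000074934, chr2:113746164-113758646, minus strand), which encodes gremlin and restrains BMPs in limb and connective tissue, was low over all tissue at 5.38, 7.71, 6.98 and 9.12 CPM. It was called higher in the tendon list alone among the 17, where 4, 63, 42 and 81 UMIs gave 8.84, 10.1, 10.7 and 16.0 CPM against 5.29, 7.56, 6.75 and 8.71 CPM (0.74 ± 0.16, adjusted p = 0.00625). It was 0.73 without the E14.5 single area, whose value rests on 4 UMIs. In mean level tendon (11.4 CPM over 4 areas) did not lie beyond lens (10.7 CPM over 3 areas). Ventricular zone spots held 2.16, 2.10, 0.736 and 4.72 CPM from 5, 11, 3 and 15 UMIs (-1.73 ± 0.37, adjusted p = 0.00919), and this call was lost with 5000 UMIs per spot (-0.95).

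**Figure D4:**
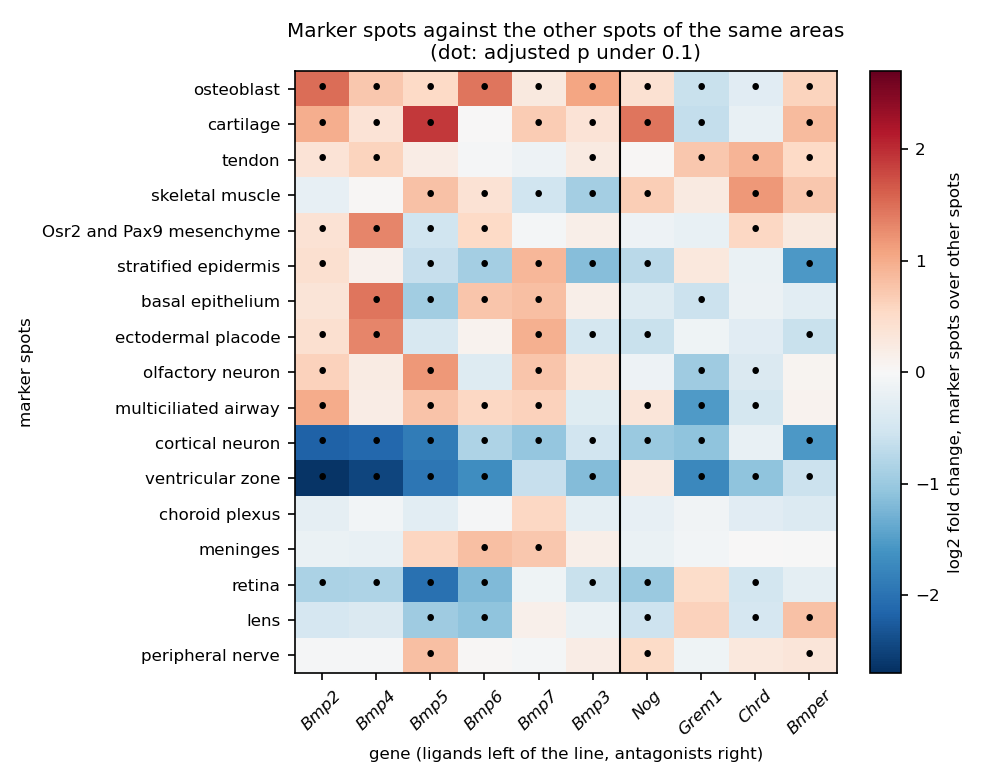
Log2 difference between marker spots and all other spots of the same area for each member (columns) and each of the 17 marker lists (rows), in colour, with a dot where the adjusted p was under 0.1 (edgeR's quasi-likelihood test). Bone, cartilage and connective tissue lists are mostly higher, and the cortical neuron, ventricular zone and retina lists are lower.

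Taken by tissue, the skeletal lists held the most members. In osteoblast spots 8 of 10 members were called higher and 2 lower, where 22.9% of all 14060 genes tested were called higher and 27.1% lower. The 8 were the 6 ligands with Nog (0.40) and Bmper (0.59), the smaller ligand differences being 0.73 for Bmp4, 0.55 for Bmp5 and 0.27 for Bmp7. The 2 lower members were the antagonists Grem1 (-0.60) and Chrd (-0.30), and neither was called with DESeq2, at 5000 UMIs per spot or without the E15.5 shared area. Without TMM scaling 5 members were called higher. The median log2 difference of the members was 0.57, against -0.04 over all genes. In cartilage spots 7 members were called higher and 1 lower, Grem1 again (-0.64), beside 13.6% and 17.5% of all genes, with a median of 0.53 against -0.05. The 7 included Bmp7 at 0.68 and Bmp4 at 0.36. Grem1 was called only with the E14.5 shared and both E15.5 areas in the fit, and at 5000 UMIs per spot 5 members were higher and 0 lower. At 1000 UMIs per spot 3 of 8 members tested were higher in osteoblast spots and 1 of 9 in cartilage spots, with 0 lower in either. The shares of all genes by direction were not computed for the thinned fits.

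Connective tissue and muscle held other mixtures. In tendon spots 6 members were called higher and 0 lower, beside 21.9% and 22.3% of all genes, and the medians were 0.30 and 0.02. Besides Chrd, Grem1 and Bmp3 these were Bmp4 (0.60), Bmper (0.53) and Bmp2 (0.36), but 3 members were called higher without the E15.5 single area and 3 at 5000 UMIs per spot. In skeletal muscle spots 5 were higher and 2 lower, beside 21% and 28.7% of all genes, with medians of 0.31 and -0.05. The 5 were the antagonists Chrd, Bmper and Nog and the ligands Bmp5 (0.79) and Bmp6 (0.38), and the lower ones were Bmp3 (-0.92) and Bmp7 (-0.53), with 4 lower at 2% of spots and 1 at 10%. In the Osr2 and Pax9 spots 4 were higher and 1 lower, beside 14.7% and 20.7% of all genes, with medians of 0.21 and -0.01. Bmp4, Chrd, Bmp6 (0.54) and Bmp2 (0.39) were the higher ones and Bmp5 (-0.54) the lower one. Only 1 was called higher without the E14.5 shared area and 2 without the E15.5 single area or at 2% of spots, and the lower call was lost with DESeq2, without TMM, at 5000 UMIs and without any area but the E14.5 single one. Peripheral nerve spots had 3 higher and 0 lower, beside 9.9% and 11.8% of all genes, and 0 higher both without the E15.5 single area and at 5000 UMIs per spot.

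In the epithelial lists some members were called higher and others lower. Counts of 2 or 3 members are not far from the shares of all genes given beside them, and do not set the members apart. In stratified epidermis spots Bmp7 and Bmp2 (0.42) were called higher and 5 members lower, among them Bmp3 (-1.15), Bmp6 (-0.92), Nog (-0.72) and Bmp5 (-0.63), beside 22.9% higher and 22.6% lower of all genes. The medians were -0.41 for the members and 0.01 for all genes. The higher count was 1 with DESeq2, without TMM, with no filter on low counts, at 2% of spots and at 5000 UMIs per spot. It was also 1 without either single area, and 0 at 1000 UMIs per spot. The lower count was 3 at 5000 UMIs per spot and without the E15.5 single area, and 0 at 1000 UMIs per spot. Basal epithelium spots had 3 higher (Bmp4, Bmp7 and Bmp6) and 2 lower (Bmp5 at -0.93 and Grem1 at -0.59), beside 17.4% and 20.9%, with 1 lower without the E15.5 single area. Placode spots had 3 higher and 3 lower, beside 16.4% and 19.2%, with Bmp4, Bmp7 and Bmp2 (0.43) above and Nog (-0.61), Bmper (-0.59) and Bmp3 (-0.47) below. The lower count was 5 without the E14.5 shared area and 0 without the E15.5 shared area. Olfactory neuron spots had 3 higher, Bmp5, Bmp7 (0.75) and Bmp2 (0.62), and 2 lower, Grem1 (-0.96) and Chrd (-0.38), beside 17.6% and 15.3%, with 1 lower without the E15.5 single area and 0 at 5000 UMIs per spot. Multiciliated airway spots had 5 higher and 2 lower, beside 14.6% and 17%, with Grem1 at -1.52, and 3 higher and 0 lower at 5000 UMIs per spot. As background, cilia genes mark the surface of the nasal airway, and 48 of these spots were also olfactory neuron spots and 45 also cartilage spots.

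Brain and retina spots were low in most members. Cortical neuron spots had 0 higher and 9 lower, all but Chrd (-0.21), beside 32.8% and 35.9% of all genes, with a median of -1.07 for the members and -0.04 for all genes. Ventricular zone spots had 0 higher and 8 lower, beside 26.3% and 30.3%, with medians of -1.43 and -0.02, and Bmp7 (-0.62) and Nog (0.25) were not called. Retina spots had 0 higher and 7 lower, beside 19.1% and 20.5%, with medians of -0.72 and 0.00, and 4 lower both at 10% of spots and at 5000 UMIs per spot. These lists are not separate tissues, since 60 of the 307 ventricular zone spots were also retina spots (19.5%). Another 35 were shared with the choroid plexus list and 27 with the lens list, counted without regard to further overlap. Depth moved with the cortical neuron and ventricular zone lists, given here as median UMIs against those of the other spots. In the shared areas cortical neuron spots were shallower, at 33646 against 48027 UMIs at E14.5 and 20746 against 46483 at E15.5. Ventricular zone spots there had 39011 against 48055 and 29185 against 46162 UMIs. In the E15.5 single area both were deeper, at 67689 against 63737 and 79248 against 63486 UMIs. In the E14.5 single area they had 38457 and 48620 against 7567 UMIs. Without that area the ventricular zone differences of Bmp2 and Bmp4 were -2.53 and -2.39. In the meninges 2 members were higher, Bmp6 and Bmp7 (0.73), and 0 lower, beside 8.46% and 7.12%, but 1 was higher when any area other than the E14.5 single one was left out. In lens spots 1 was higher and 4 lower, beside 5.83% and 5.2%, but 0 were called at 10% of spots and 1 was lower without the E14.5 shared or the E15.5 single area. For the choroid plexus list the test called 1 gene in all (0.00705% higher and 0% lower) and no member. That fit had 986 genes at an unadjusted p under 0.05, and DESeq2 called 225 genes.

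The rest of the pathway was described in the lists that a member led, by groups of other ligands, other extracellular antagonists and modulators, receptors, Smad proteins with the Smurf ligases that mark them for degradation, and target genes. In osteoblast spots, where Bmp2, Bmp6 and Bmp3 led, 22.9% of all genes tested were called higher and 27.1% lower. Beside these shares, 6 of 9 target genes tested were higher and 1 lower, with Msx1, a transcription factor induced by BMPs, in front (1.54 ± 0.08, adjusted p = 1.51e-05). Of 8 Smads and Smurfs, 2 were higher and 0 lower, led by the receptor-regulated Smad9 (2.23 ± 0.12, adjusted p = 1.19e-05). Of 9 receptors 2 were higher and 3 lower, led by the decoy receptor Bambi (2.19 ± 0.09, adjusted p = 6.41e-06). Bmp8a, a ligand of the same family, was higher by 3.31 ± 0.16 (adjusted p = 8.66e-06) as the only one of 6 other ligands, and 1 was lower. Of 20 other antagonists and modulators 6 were higher and 6 lower, with sclerostin, Sost, in front (2.29 ± 0.26, adjusted p = 0.000383).

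In cartilage spots, led by Bmp5, Nog and Bmper, 13.6% of all genes were called higher and 17.5% lower. There 4 of 7 other ligands were higher and 0 lower, with Gdf7 at 2.07 ± 0.22 (adjusted p = 0.00076). Targets were 4 higher and 1 lower, with Msx2 at 0.78 ± 0.14 (adjusted p = 0.0074), and the inhibitory Smad6 stood at 0.64 ± 0.16 (adjusted p = 0.0245). The follistatin-like protein Fstl1 led the modulators at 0.89 ± 0.09 (adjusted p = 0.000613). In basal epithelium spots, led by Bmp4, the BMP and Wnt antagonist Sostdc1 was higher by 2.84 ± 0.13 (adjusted p = 3.25e-05), the target Msx2 by 2.08 ± 0.14 (adjusted p = 4.3e-05), the inhibitory Smad7 by 0.62 ± 0.08 (adjusted p = 0.000843) and Bmp8b by 1.04 ± 0.25 (adjusted p = 0.0152). Placode spots, led by Bmp7, had the same 2 genes in front of their groups, Sostdc1 at 2.02 ± 0.11 (adjusted p = 1.06e-06) and Msx2 at 2.11 ± 0.11 (adjusted p = 8.77e-07). In both lists 4 targets were higher and 2 lower. Of all genes, 17.4% were higher and 20.9% lower in basal epithelium spots, and 16.4% and 19.2% in placode spots.

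In skeletal muscle spots, led by Chrd, 10 of the other antagonists and modulators were higher and 3 lower, 0 other ligands were higher and 4 lower, and 1 target was higher and 6 lower. Of all genes, 21% were higher and 28.7% lower there. The leading modulator was the BMP co-receptor hemojuvelin, Hjv (3.06 ± 0.26, adjusted p = 3.34e-05), and the type I receptor Bmpr1a was higher by 0.54 ± 0.08 (adjusted p = 0.000975). In tendon spots, led by Grem1, 7 modulators were higher and 0 lower, with the chordin-like antagonist Chrdl2 at 1.39 ± 0.20 (adjusted p = 0.000732), and targets were 4 higher and 3 lower. The shares of all genes were 21.9% higher and 22.3% lower. No gene of these groups was called in any comparison of the stages, and those fits called 0% of all genes.

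Between the stages the question was whether the members changed as the palate fused and bone formed. No member was called over all tissue, where the fit called 0% of 15609 genes, with 930 genes at an unadjusted p under 0.05 and 28 called by DESeq2. With 2 areas a stage a value that misses the threshold does not show that the stages were alike. The median log2 difference of the members (E15.5 over E14.5) was 0.22, against 0.00 over all genes.

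Over all tissue the sections of Bmper held 18.2, 21.3, 20.2 and 18.1 CPM at E14.5 (19.5 ± 1.60, mean and SD, n = 4 sections) and 23.1, 29.2, 26.7 and 35.4 CPM at E15.5 (28.6 ± 5.18, n = 4), in the order single section, A, B and C. Bmper was the 1 member of 10 whose sections did not overlap between stages, a share near that of all genes (6.07% higher and 3.27% lower at E15.5). The fitted difference was 0.43 ± 0.28 (adjusted p = 0.77) and lay between 0.25 and 0.60 when each area was left out in turn. In osteoblast spots alone it was -0.03.

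By area, 3 members did not overlap and were higher at E15.5, Bmper, Bmp5 and Nog, beside 24.9% of all genes, and Bmp7 was lower, beside 15.2%. Bmp5 sections held 5.77, 11.05, 5.58 and 4.57 CPM at E14.5 and 6.26, 8.16, 13.98 and 11.5 CPM at E15.5 (0.52 ± 0.37, adjusted p = 0.78). Section A at E14.5 lay among the E15.5 sections. Nog sections held 16.5, 30.9, 16.4 and 14.3 CPM against 18.1, 24.2, 22.6 and 25.0 CPM (0.26 ± 0.28, adjusted p = 0.82), and section A at E14.5 was the highest of all 8. Cartilage markers summed to 2006, 5660, 2811 and 2446 CPM in the E14.5 sections and to 2253, 3200, 4553 and 5136 CPM in the E15.5 sections, so both genes were highest at E14.5 in the section with the most cartilage, and the part of this in the stage values was not tested. Bmp7 sections held 66.5, 98.3, 69.0 and 89.1 CPM (80.7 ± 15.5) against 64.1, 51.7, 68.4 and 65.0 CPM (62.3 ± 7.34), a log2 difference of -0.28 ± 0.23 (adjusted p = 0.79).

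The other 6 members overlapped between stages by section and by area. Bmp2 averaged 33.0 ± 13.1 and 33.4 ± 4.43 CPM over the sections of E14.5 and E15.5, Bmp4 40.8 ± 16.8 and 42.6 ± 13.6 CPM, and Bmp6 44.0 ± 13.4 and 41.5 ± 9.23 CPM. Bmp3 averaged 67.3 ± 22.5 and 62.9 ± 11.8 CPM, Chrd 36.2 ± 6.20 and 35.0 ± 3.42 CPM, and Grem1 7.29 ± 1.503 and 8.44 ± 1.51 CPM (SD, n = 4 sections each). For each of these 6 genes the means of the stages differed by less than the SD of the sections of either stage. Their fitted log2 differences ran from -0.08 (Bmp6) to 0.24 (Bmp4), with adjusted p from 0.87 to 0.99. Without the E14.5 single area those of Bmp2, Bmp4, Grem1 and Chrd turned to -0.18, -0.14, -0.04 and -0.18.

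**Figure D5:**
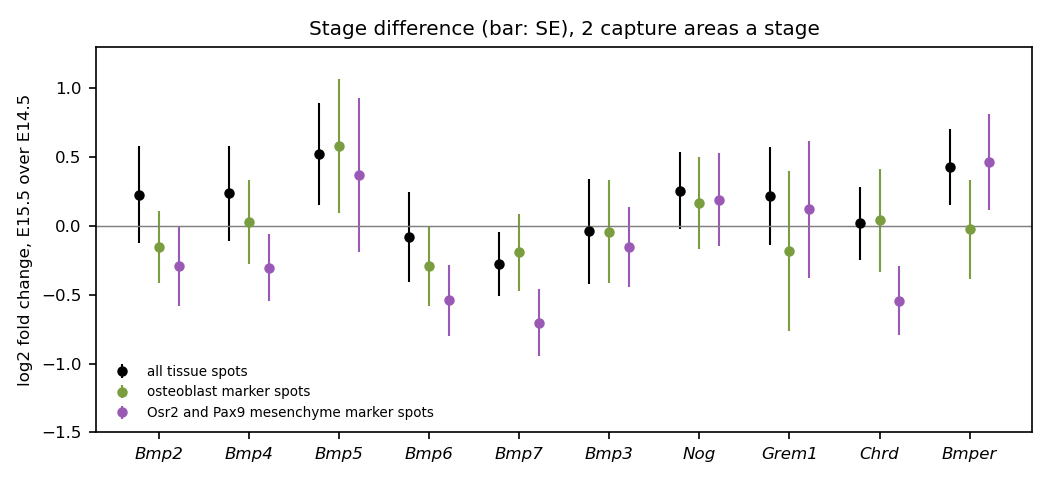
Log2 difference of E15.5 over E14.5 for each member with its standard error, over all tissue spots (black), osteoblast marker spots (green) and Osr2 and Pax9 marker spots (purple), from 2 areas a stage. The lowest point is Bmp7 in Osr2 and Pax9 spots at -0.70, and no point was past the threshold on the adjusted p (0% of all genes were).

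Within osteoblast spots no member was called (0% of 12304 genes, 174 at an unadjusted p under 0.05, 1 gene by DESeq2). The member differences were between -0.29 ± 0.29 for Bmp6 and 0.58 ± 0.49 for Bmp5, with a median of -0.03 against 0.00 for all genes. Bmp2 in these spots stood at 73.0 and 74.2 CPM at E14.5 and 66.3 and 66.9 CPM at E15.5, a difference of -0.15. Over whole sections the osteoblast markers summed to 550, 924, 1083 and 893 CPM at E14.5 and to 856, 2259, 1446 and 2025 CPM at E15.5, which overlap between the stages, as do the sections for Bmp2, Bmp6 and Bmp3.

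Within Osr2 and Pax9 spots no member was called either (0% of 12629 genes, 290 at an unadjusted p under 0.05, 0 by DESeq2). The lowest value was that of Bmp7, at 96.5, 81.5, 62.1 and 49.99 CPM from 55, 418, 231 and 260 UMIs, so both E15.5 areas lay below both E14.5 areas. The log2 difference was -0.70 ± 0.25 with an unadjusted p of 0.0135 in edgeR's fit and an adjusted p of 1.0, and it stayed between -0.85 and -0.57 when each area was left out. Chrd stood at 68.5 and 57.5 CPM at E14.5 and 43.6 and 44.4 CPM at E15.5 (-0.54 ± 0.25, unadjusted p = 0.0497). Bmp6 stood at 75.5 and 60.8 CPM and then 42.7 and 51.9 CPM (-0.54 ± 0.26, unadjusted p = 0.0563). The median of the 10 members was -0.22, against -0.01 over all genes.

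Across spots, the members varied together to different degrees. With the counts of a spot summed with those of its array neighbours, so that points overlap, the correlation of Bmp2 with Bmp4 had a median r of 0.45 over the 4 areas (0.23 to 0.65), that of Bmp4 with Bmp6 was 0.42 and that of Bmp4 with Bmp7 was 0.40. Among antagonists, Grem1 and Chrd had 0.25, and Nog and Grem1 -0.04. Among the members led by cartilage, Bmp5 and Nog had 0.21 and Nog and Bmper 0.15, below Bmp4 with Bmp3 (0.38) or Bmp2 with Bmp5 (0.34), which were led by different lists. These are descriptions over the spots of an area (998 in the E14.5 single area), which share a library and depth.

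The genes most like each member over the spots were sought among 11143 genes with enough counts. For Bmp2 these were Vasn, Snai1 and Prrx1 (median r 0.66 each), the latter pair being transcription factors of mesenchyme. Bmp6 was nearest to the Wnt antagonist Frzb (0.66), the osteoblast regulator Runx2 and Msx1 (0.64 each), and Bmp3 to Slc26a7 (0.66), Pdgfd (0.57) and the matrix gene Fn1 (0.55). Bmp4 was nearest to Itgb5, Nfatc4 and Rarg (0.67 each), and Bmp7 to the BMP target Id3 (0.53) and Gsta4 (0.52). Bmp5 and Nog had 2 of their 3 genes in common, Susd5 (0.50 and 0.40) and Cspg4 (0.49 and 0.45), with the cartilage collagen Col27a1 (0.49) for Bmp5 and Fzd9 (0.42) for Nog. Chrd was nearest to Angptl1 (0.58), the actin gene Acta2 (0.56) and Fibin (0.55), and Grem1 to the transcription factor Foxl2 (0.45, 0.42 to 0.51 over areas), Adamts15 (0.38) and Sulf1 (0.37). Bmper was nearest to the retinoic acid enzyme Aldh1a2 (0.41), Col8a2 (0.40) and the basement membrane gene Nid2 (0.38). The likeness of Nog and Cspg4 was not found in every area (-0.02 to 0.51).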

How the data were processed

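Visium libraries of mouse heads (4 capture areas, 2 at E14.5 and 2 at E15.5) were analysed from the tables deposited by the authors, which hold raw UMI counts per gene and spot. Per the labels they were made with Space Ranger 1.3.1 and 2.0.0 against mm10. The probe set is not given in the sources used here. Gene positions are those of GENCODE M21 on GRCm38.

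Tissue spots were summed per capture area, the sample of every test. Sections were separated by their spots' array positions (groups of at least 100 touching spots), leaving 88 of 6357 spots in none, and 19 barcodes lay off the tissue. Area depth was 15438992 to 109127953 UMIs, and 220 spots had under 1000. No doublet caller was run. The areas share 192 barcodes out of 4992 array positions in all 4 tables, because a barcode marks a position on the array and not a cell. All value columns were used (0 left out).

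Marker spots were the 5% of an area's spots with the highest mean standardized log1p of counts per 10000 over a list, kept where at least 3 markers were detected and at least 15% of a marker spot's neighbours were also marker spots. Of 18 lists 17 passed in at least 3 areas, and the endothelial list did not. The placode, multiciliated airway, lens and peripheral nerve lists lack the E14.5 single area. Sums were tested with edgeR 4.0.16 (quasi-likelihood test, TMM, filterByExpr) in R 4.3.3, with Benjamini-Hochberg adjustment over all genes tested and a threshold of 0.1, the area being a block between marker and other spots. The fits were tested first on simulated data with 200 genes changed. The stage fit over all tissue recovered 16.4% of changes of 1 on the log2 scale and 91.0% of changes of 2. Of its calls 12.9% were false. The osteoblast region fit recovered 85.1% and 92.5%, and 19.9% of its calls were false. Both shares of false calls were above the threshold of 0.1. Python 3.11.15 with numpy 2.4.6, pandas 2.3.3 and scipy 1.17.1 did the rest.

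All 10 members are named between stages, and each with its 3 highest and its lowest called list. Pathway genes outside the members are named where they lead their group, and the 3 genes most alike are named by median Pearson correlation over areas (at least 100 UMIs in each). One of these genes is not reported here. The members, marker lists and pathway lists were chosen with earlier results of these data known. Alternatives were DESeq2 1.42.0, library sizes without TMM, other filters, 2% and 10% of spots, sections as samples, thinned areas, 1000 UMIs per spot, leaving out each area, and an added thinning of spots to 5000 UMIs, chosen after seeing the data, which left out 484, 361, 5 and 12 spots of the areas (E14.5 single and shared, E15.5 single and shared).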

Additional observations from a re-analysis of the deposited data

Results flagged for a closer look

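In groups of 4 sections, Nog in section A of the E14.5 shared area, at 30.9 CPM, lay farther from the other 3 sections than Dixon's limit allows. It was 1 of 20 groups of gene and stage looked at, and chance flags about 1 in 20.

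In 9 of 130 pairs of a member and a marker list, both E14.5 areas differed from the other spots in one direction and both E15.5 areas in the opposite one. The share of all genes with such opposite signs was not computed, so the 9 pairs are only a description. The test of the stage difference itself, in edgeR's fit with Benjamini-Hochberg adjustment, called none of the 130 pairs. Of them 17 were at an unadjusted p under 0.05, a share not computed over all genes. Over all genes that test called 434 genes for osteoblast (3.09%), 100 for Osr2 and Pax9 (0.713%), 78 for basal epithelium (0.554%), 21 for tendon (0.149%) and 2 for stratified epidermis (0.0142%), and 0 for the other 8 of 13 lists. The values are the log2 ratio of marker to other spots at E15.5 less that at E14.5. In skeletal muscle spots Bmp4 had -0.89 (log2 ratios 1.11 and 0.23, then -0.51 and -0.47, adjusted p = 0.61) and Grem1 had -0.59 (adjusted p = 0.95). In basal epithelium spots Bmp3 had -0.84 (0.29 and 0.81, then -0.27 and -0.10, adjusted p = 0.18) and Chrd had -0.73 (adjusted p = 0.44). In choroid plexus spots Bmp3 had 1.51 and Bmp2 had 1.06 (adjusted p = 1.0 each). Nog in meningeal spots had -0.71 (adjusted p = 0.94), Bmp6 in tendon spots -0.41 (adjusted p = 0.75) and Bmp7 in Osr2 and Pax9 spots -0.38 (adjusted p = 0.54).

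Barcodes lying off the tissue held UMIs of the members. In the E14.5 shared area 8 such barcodes had 37 UMIs of the 10 genes among 209555 UMIs, or 177 CPM beside 359 CPM in the tissue, and in the E15.5 shared area 11 barcodes had 96 among 352936, or 272 CPM beside 361 CPM. Whether other genes lay on these few barcodes in like measure was not computed, so the counts do not place the members outside the tissue.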

How the results depend on the processing

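The number of genes called moved with depth, the limit on spots and the areas used. With spots thinned to 1000 UMIs, and then to 5000 UMIs (chosen after seeing the data), the region fits called 1493 and 4049 genes for osteoblast (7037 unthinned), 651 and 2086 for cartilage (4385), 907 and 3057 for tendon (6221), 1557 and 4246 for skeletal muscle (7010), 715 and 2736 for Osr2 and Pax9 (4962), 1333 and 3812 for epidermis (6399), 1175 and 3263 for basal epithelium (5387), 784 and 2785 for placode (5344), 704 and 2295 for olfactory (4670), 535 and 2124 for multiciliated (4799), 2189 and 5013 for ventricular zone (7831), 871 and 2648 for retina (5557), 352 and 1328 for meninges (2191), 256 and 892 for lens (1663), 335 and 1770 for nerve (3263) and 45 and 26 for choroid plexus (1), and for cortical neuron 3511 at 1000 UMIs (9510). With 10% of spots the meninges gave 813, retina 3230, lens 237 and choroid plexus 2, and with 2% lens gave 3428 and choroid plexus 6. Choroid plexus gave 225 with DESeq2 and 4 with no filter. Leaving out 1 area in turn gave 1762 to 4730 genes for cartilage, 3929 to 6305 for tendon, 2412 to 5430 for Osr2 and Pax9, 4263 to 6443 for epidermis, 3446 to 5279 for basal epithelium, 2528 to 5639 for olfactory, 1 to 2 for choroid plexus, 415 to 3986 for meninges, 737 to 3886 for lens and 1185 to 4937 for nerve. The stage fits called 0 genes. Over all tissue DESeq2 called 28 and leaving out an area 0 to 78 (78 without the E15.5 single area). For osteoblast spots the counts were 1 with DESeq2, 21 with no filter and 1 to 18 without an area, and for Osr2 and Pax9 spots 13 with no filter, 1 with at least 10 counts in every area and 3 to 21 without an area. A lone area left in a stage is assumed to vary like the others. The stages share only a replicate number (correlation of deviations 0.25 between same-numbered areas), and with the replicate block 14 genes were called in Osr2 and Pax9 spots and no member in any stage fit.

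Of 38 named pairs of a member and a list, 16 kept direction and call under every alternative and 32 under every alternative but thinning. With spots thinned to 1000 UMIs, 0 of 8 members tested were higher for tendon and 1 of 9 for skeletal muscle. For Osr2 and Pax9 it was 1 of 9, for basal epithelium 1 of 8 and for placode 2 of 8. Epidermis (of 8), olfactory (of 9), multiciliated (of 7), meninges, lens and nerve (of 8 each) had 0 higher. Members called lower were 4 of 8 for cortical neuron, 5 of 8 for ventricular zone and 2 of 8 for retina. Shares of all genes by direction were computed for the main fits only. The total of genes called also fell in these lists at 1000 UMIs, so the member counts are a description. Signs turned for Bmp3 in cartilage at 1000 UMIs (-0.17) and in tendon at 5000 UMIs (-0.0121). None of the stage differences of members had been called. With sections as samples those of Bmp2, Bmp4 and Chrd over all tissue became -0.0504, -0.00646 and -0.12, without TMM Bmp3 became 0.0386, and with the replicate block Bmp3 became 0.0544 over all tissue and 0.10 in osteoblast spots. In osteoblast spots Chrd became -0.0942 with 10% of spots and Bmper 0.0132 with at least 10 counts per area. Leaving out 1 area in turn gave, over all tissue, -0.18 to 0.83 for Bmp2, -0.14 to 0.78 for Bmp4, -0.43 to 0.27 for Bmp6, -0.50 to 0.66 for Bmp3, -0.0406 to 0.56 for Grem1 and -0.18 to 0.26 for Chrd. In osteoblast spots it gave -0.24 to 0.60 for Bmp4, -0.41 to 0.19 for Bmp7, -0.47 to 0.85 for Bmp3, -0.43 to 0.43 for Grem1, -0.27 to 0.97 for Chrd and -0.59 to 0.39 for Bmper. In Osr2 and Pax9 spots it gave -0.52 to 0.26 for Bmp2, -0.22 to 0.59 for Bmp5, -0.46 to 0.56 for Bmp3, -0.12 to 1.05 for Grem1 and -0.13 to 0.84 for Bmper. The causes were not tested. Depth limits Grem1 and Bmp5 most, with 4 UMIs of Grem1 in the tendon spots and 2 of Bmp5 in the retina spots of the E14.5 single area.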

Other observations

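The rest of the pathway was also counted in lists that no member led. In multiciliated airway spots 6 of 7 other BMP family ligands were called higher and 0 lower, with a median log2 difference of 1.48, where 14.6% of all genes were higher and 17% lower, and 5 of 9 target genes were higher and 1 lower. In cortical neuron spots, where 32.8% of all genes were higher and 35.9% lower, 2 of 20 other antagonists and modulators were higher and 14 lower, 1 of 9 target genes was higher (Id2) and 7 lower, and 5 of 9 receptors were higher and 4 lower, with a median of 0.40 for the receptors and -1.05 for the targets. Ventricular zone spots, where 26.3% of all genes were higher and 30.3% lower, had 15 of 20 antagonists and modulators and 5 of 6 other ligands lower and 0 higher, and 3 of 9 receptors higher and 3 lower. In peripheral nerve spots 8 of 20 antagonists and modulators were higher and 0 lower, where 9.9% of all genes were higher, and 5 of 9 targets were lower and 2 higher. The lists were chosen with earlier results of these data known, and the counts are a description.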
